A study of Mus musculus with 3 samples.

Results

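The Notch pathway genes examined here were Dlk1 and Dlk2, the receptors Notch1, Notch2, Notch3 and Notch4, the ligands Jag1 and Jag2, and the target genes Hes1 and Hey1. They were chosen by name, with earlier results of these data known. Every non-control array probe whose RefSeq accession matched one of these symbols was kept. Of the 10 genes, 9 had a probe, 12 probes in all, out of 20140 genes named on the array. No probe was matched to Dlk2, so its expression was not analysed here. The RNA came from 3T3-L1, an established mouse preadipocyte line that stores fat after induction, taken 2, 8 or 20 days after induction with 1 array per day, and the labels give no other treatment or genotype. The series was made to follow gene expression as the fat cells enlarge. With 1 array per day no difference was tested, and each value compares 2 arrays of one cell line.

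Notch receptors are single-pass membrane proteins that are activated by ligands on neighbouring cells. The canonical ligands of the Jagged and Delta-like families trigger cleavage of the receptor by an ADAM protease and then by gamma-secretase. The freed intracellular domain joins the DNA-binding protein Rbpj and a Mastermind coactivator and switches on repressor genes such as Hes1 and Hey1. Dlk1, also called preadipocyte factor 1, resembles the Delta ligands but lacks their receptor-binding DSL domain. It is abundant in 3T3-L1 preadipocytes, where it restrains adipocyte differentiation, and is known for its decline as these cells differentiate. The series holds no array of cells before induction, so a decline from the uninduced state could not be assessed here.

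A level is given below as log2 of the processed spot intensity minus the 75th percentile of all non-control probes on that array. This percentile was an intensity of 662 on day 2, 636 on day 8 and 927 on day 20. Levels of different probes depend on the probe and are not compared with each other. The error beside a value is a technical SD between spots of equal signal on an array, and it holds no spread between cultures. It was divided by the square root of the number of spots of the probe, so it is smaller for a probe printed several times. For a difference, the errors of both arrays were combined. A gene with several probes was read from its brightest, a difference was measured where the probe was well above background on both days, and a log2 difference of at least 1 in size was counted as 2-fold. Of the 9 genes with a probe, 8 were measured on every day, and Jag2 on none.

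Dlk1 was lowest on day 8 and highest on day 20 on both of its probes. Its brighter probe read 29439 intensity units on day 2, 20621 on day 8 and 83040 on day 20, or levels of 5.47, 5.02 and 6.49. The second probe, far dimmer, gave the same order, with levels of 1.76, 1.25 and 2.92. From day 2 to day 8 the log2 difference was -0.46 (technical SD 0.0622), which was under 2-fold but several times that SD, and the second probe gave -0.52. That SD holds no effect of scaling. Other ways of scaling or processing the arrays put this step between -0.56 (median scaling) and -0.23 (quantile normalization). From day 8 to day 20 Dlk1 was 2.76-fold higher (log2 difference 1.47, SD 0.0689), and 3.19-fold by the second probe. Day 20 was also above day 2, by 1.01 (SD 0.0657) and by 1.16 on the second probe, so the first of these lay just past 2-fold. Across the other ways of processing, day 20 against day 2 ranged from 1.01 to 1.72. Day 20 against day 8 ranged from 1.47 to 2.13, and both were highest with spike-in scaling. Among 12318 genes measured on days 8 and 20, 173 had a larger positive difference than Dlk1.

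**Figure D1:**
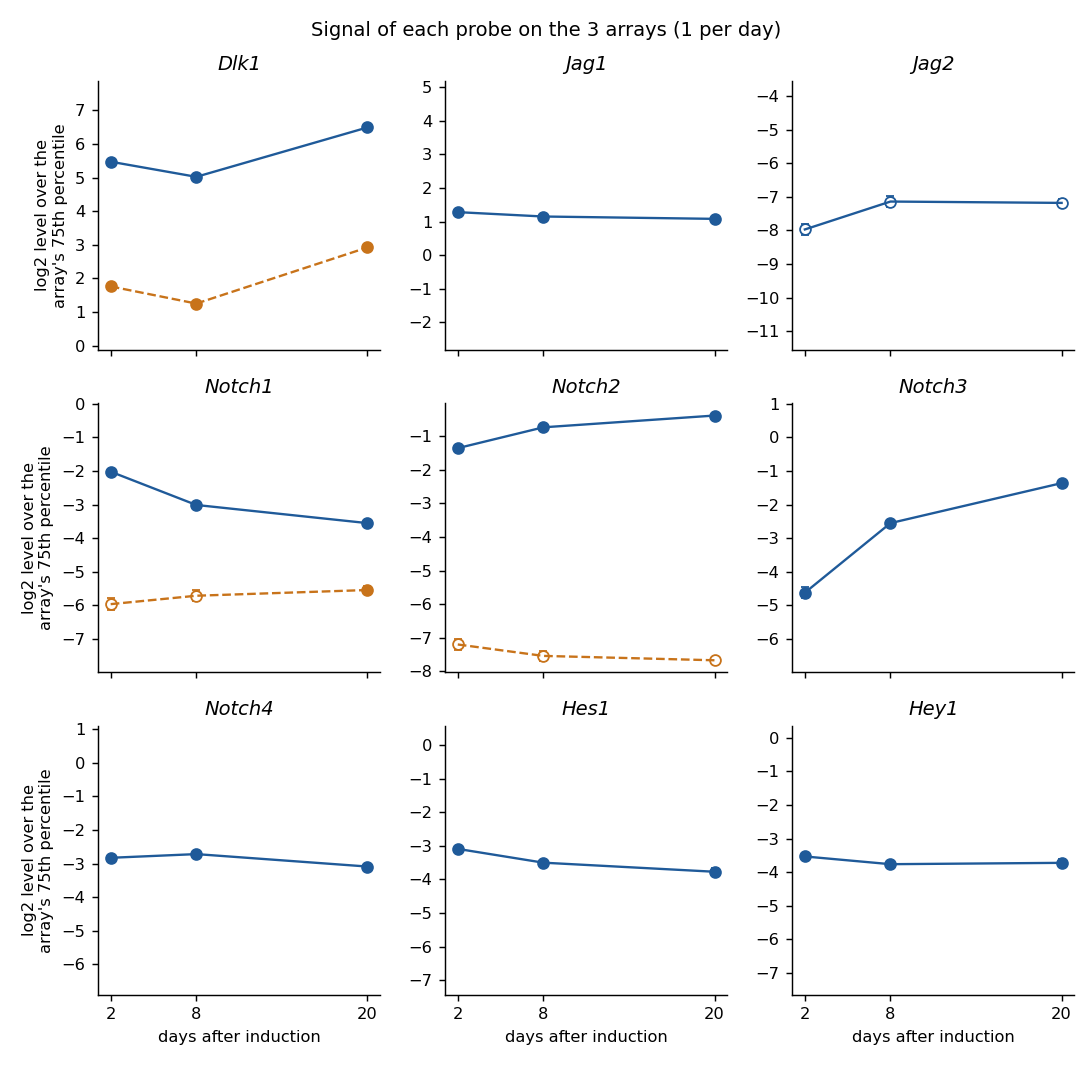
Level of every probe on the 3 arrays against days after induction, on the log2 scale with the array's 75th percentile at 0. Each panel spans 8 log2 units, blue lines are the probe used and dashed orange lines a gene's other probe, bars are the technical SD, and open circles are not well above background. Notch3 goes from -4.62 to -1.36, Dlk1 is at 5.02 on day 8 and 6.49 on day 20, and Hey1 stays between -3.76 and -3.53.

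The receptors differed in direction. Notch3, which is best known from smooth muscle and pericytes, read 26.9 intensity units on day 2, 109 on day 8 and 362 on day 20. Its levels were -4.62, -2.55 and -1.36, each day above the one before. It was 4.20-fold higher on day 8 than on day 2 (log2 difference 2.07, SD 0.175) and a further 2.28-fold higher on day 20 (1.19, SD 0.0944). Across the whole interval the difference was 3.26 (SD 0.173), or 9.59-fold, and 299 of 11885 measured genes had a larger positive one. The day 2 spot was dim, and with normexp background correction the 3 differences were smaller, 1.01, 0.69 and 1.70, so the step from day 8 to day 20 then missed 2-fold. Notch3 rests on 1 probe.

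Notch1, the receptor most often studied in cell fate decisions, went the other way. Its level was -2.02 on day 2, -3.01 on day 8 and -3.55 on day 20. The first step lay at -0.99 (SD 0.0995), just inside 2-fold, the second at -0.54 (SD 0.123), and day 20 was 2.89-fold below day 2 (-1.53, SD 0.115). When the arrays were scaled on spike-in probes the second step turned to 0.13 and the whole interval shrank to -0.82, under 2-fold. With normexp the first step was -0.55 and the whole interval -1.08. The other Notch1 probe was not well above background on days 2 and 8 and gave no measured difference. It was dim, was well above background on day 20 alone, and its levels of -5.96, -5.71 and -5.54 ran in the opposite order.

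Notch2, the broadly expressed receptor, had levels of -1.36, -0.74 and -0.39, with each day again above the last. Neither step reached 2-fold (0.62 and 0.35), and the difference from day 2 to day 20 was 0.97 (SD 0.08), just short of it. That last difference passed 2-fold with 4 other scalings, at 1.17 with the percentile over detected probes, 1.12 with cyclic loess, 1.07 with median scaling and 1.68 with spike-in scaling. Spike-in scaling also put the second step at 1.01. The second Notch2 probe was not well above background on any array. Notch4, typical of endothelial cells, had levels of -2.83, -2.72 and -3.09. Its differences of 0.10 to day 8 (SD 0.108) and -0.37 to day 20 (SD 0.113) were both under 2-fold, and the second turned to 0.29 with spike-in scaling. Days 2 and 8 of Notch4 did not differ by more than the technical spread.

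**Figure D2:**
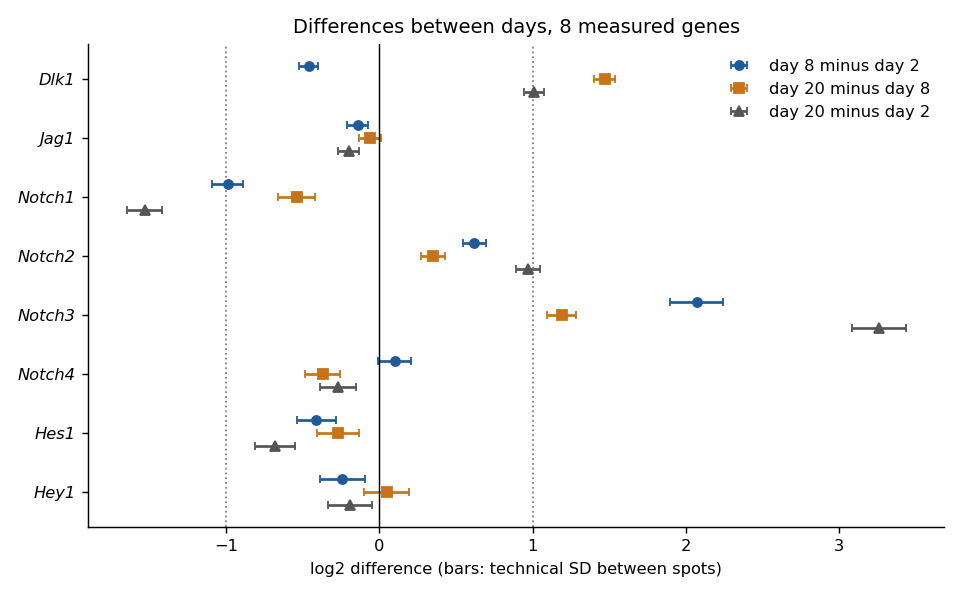
Log2 differences between days for the 8 measured genes, with technical SDs as bars and dotted lines at 2-fold. Notch3 is past 2-fold in every comparison, Dlk1 in both comparisons with day 20, and Notch1 from day 2 to day 20.

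No canonical ligand passed 2-fold, and 2 of the 5 were measured. Jag1, a Jagged ligand that activates Notch on adjacent cells, read 1609, 1407 and 1963 intensity units. Its levels of 1.28, 1.15 and 1.08 spanned 0.20 log2 units, and the step from day 8 to day 20 of -0.06 was smaller than its SD of 0.071. Day 20 was at -0.20 from day 2 (SD 0.0686), a value that turned to 0.51 with spike-in scaling. Jag2, the second Jagged ligand, read 2.64, 4.51 and 6.38 intensity units and was not well above background on any day. Among the Delta-like ligands, Dll1 and Dll4 were likewise not well above background, and Dll3, a divergent family member that does not activate Notch on other cells, was dim and at -0.44 and -0.18 in the successive steps. Over the whole interval Dll3 was at -0.62 (SD 0.186), and at 0.09 with spike-in scaling.

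No measured target gene shared the differences of Notch3. Hes1, the transcriptional repressor most widely used as a readout of Notch activity, had levels of -3.09, -3.50 and -3.77, which is a difference of -0.68 (SD 0.133) between days 2 and 20. That value turned to 0.03 with spike-in scaling. Hey1, a related repressor, had levels of -3.53, -3.76 and -3.72, and its 3 differences of -0.24, 0.05 and -0.19 were all within 2 technical SDs of 0. Both genes were dim, at 78 and 57.5 intensity units on day 2. Of the 10 genes listed as targets, 4 were measured in each comparison, Hes1, Hey1, Hes6 and Hes7, and 0 passed 2-fold. Hes6, the brightest of the 4 and a family member that counteracts Hes1, was at 0.33 and -0.17, and Hes7 was at -0.11 and 0.15. Hes5, Hey2, Heyl and Nrarp, all commonly induced by Notch, were not well above background on any day.

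Counted over the 8 measured genes, 1 was at least 2-fold higher on day 8 than on day 2, against 13.8% of all measured genes, and 0 were lower, against 12.9%. From day 8 to day 20, 2 were higher (Dlk1 and Notch3), where 3.58% of all measured genes were, and 0 were lower, where 1.74% were. From day 2 to day 20, 2 were higher and 1 was lower, beside 15.5% and 17.0% of all measured genes. For the first step the share of higher genes is close to that of all genes, and the share of lower genes is below it. With 8 genes these shares rest on single genes and were not tested. The medians of the 8 genes were -0.19, -0.01 and -0.20 in these comparisons, beside -0.06, -0.05 and -0.14 for all measured genes.

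Around these genes, 74 further genes were listed, of which 72 had a probe. They are genes of the pathway and 8 genes tied to Dlk1 by locus or by function. From day 2 to day 8, 6 of 53 measured were at least 2-fold higher and 2 were lower, beside 13.8% and 12.9% of all measured genes. From day 8 to day 20, 5 of 54 were higher and 0 lower, beside 3.58% and 1.74%. From day 2 to day 20, 10 of 53 were higher and 1 was lower, beside 15.5% and 17.0%. Their medians were 0.25, 0.09 and 0.23. The 8 genes tied to Dlk1 supplied 1 of the 2 lower genes from day 2 to day 8. They also supplied 3 of the 5 higher genes from day 8 to day 20, and 1 of the 10 from day 2 to day 20.

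The largest pathway differences from day 2 to day 8 were those of the fringe glycosyltransferases, which extend sugars on Notch and alter its response to Delta and Jagged ligands. Mfng read 91.7 intensity units on day 2, 6363 on day 8 and 18248 on day 20. It was 72.2-fold higher on day 8 than on day 2 (log2 difference 6.17, SD 0.0948), and 27 of 12041 measured genes had a larger difference. The next step was 0.98, and the second Mfng probe was at 6.10 and 1.00. Lfng read 14, 345 and 442 intensity units. It was 25.7-fold higher on day 8 (4.68, SD 0.182), from a dim day 2 spot, a value that shrank to 2.56 with normexp, and its second step was -0.19. Rfng, the third fringe, was at -0.19 and 0.05. The enzymes that add the first sugars, Pofut1 and Poglut1, were under 2-fold in every comparison on the probes used. The second, dimmer Pofut1 probe was at 1.07 from day 2 to day 20, where the probe used was at 0.86.

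The bases before Notch3 and Lfng are shown here, as the receptor and the fringe gene past 2-fold on day 8 that had an entry in the promoter table. They come from RefSeq promoter windows of GRCm38.p6, read 5′ to 3′ on the gene's strand and ended where the annotated gene begins. Capitals mark the Rbpj motif GTGGGAA and the GC box GGGCGG, searched on both strands (so also TTCCCAC and CCGCCC). The Notch3 stretch is chr17:32166897-32167140 on the minus strand, and the Lfng stretch is chr5:140607091-140607340 on the plus strand.
Notch3: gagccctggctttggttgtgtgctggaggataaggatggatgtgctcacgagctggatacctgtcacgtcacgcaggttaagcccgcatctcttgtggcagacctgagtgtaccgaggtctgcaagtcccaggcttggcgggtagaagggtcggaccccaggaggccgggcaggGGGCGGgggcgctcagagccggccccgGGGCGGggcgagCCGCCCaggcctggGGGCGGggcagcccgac
Lfng: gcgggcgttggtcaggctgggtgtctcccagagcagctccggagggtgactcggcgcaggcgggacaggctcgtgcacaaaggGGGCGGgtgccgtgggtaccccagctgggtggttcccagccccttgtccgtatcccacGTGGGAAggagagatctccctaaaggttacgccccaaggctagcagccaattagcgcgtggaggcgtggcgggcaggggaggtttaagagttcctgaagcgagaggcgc

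The Lfng stretch held 1 Rbpj motif, ending 102 bases before the gene, and 1 GC box. The Notch3 stretch held 4 GC boxes and 0 Rbpj motifs. Over all 32851 windows of 300 bases in the table, 6.38% held the Rbpj motif and 35.7% the GC box. Windows were listed for 8 of the 10 genes of interest, 9 windows in all, of which 0 held the Rbpj motif and 5 a GC box. These 8 genes include Dlk2, which had no probe. Hes1 and Hey1 had no entry, and the Dlk1 window lay inside the annotated gene, so no stretch of it is printed. These are matches of letters, and no measurement of binding was made here.

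Among the other ligands without a DSL domain, Mfap5 stood out on day 20. This microfibril protein, which can bind Notch1 and Jag1, read 334, 535 and 4695 intensity units. It was 6.01-fold higher on day 20 than on day 8 (2.59, SD 0.0762), with 22 of 12318 genes above it, after a first step of 0.74. Egfl7, a secreted antagonist of Notch first described in endothelial cells, was 3.09-fold higher on day 8 than on day 2 (1.63, SD 0.0698) and at -0.64 from there to day 20, a value that turned to 0.03 with spike-in scaling. Mfap2 was at -0.17 and 0.28, and Dner, Ccn3, Cntn1 and Cntn6 were not well above background.

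In the cleavage machinery, Aph1b, a gamma-secretase subunit, was 4.27-fold higher on day 8 (2.10, SD 0.0861, second probe 1.92) and at 0.21 from day 8 to day 20. The other 7 measured members of that list were under 2-fold in each step. They include Adam17, the protease that sheds Dlk1 from the cell surface, which was at -0.78 (SD 0.152) and then -0.06 but at -0.26 and -0.15 on its second, dimmer probe, and Adam10, which cleaves Notch, at -0.46 and 0.09. The Deltex ubiquitin ligases Dtx4 and Dtx2, which act on Notch traffic, were 8.79-fold and 2.82-fold higher on day 8, and both lay within 2 technical SDs of 0 from day 8 to day 20. The remaining 10 measured genes for ubiquitin transfer and traffic, Numb and Itch among them, were under 2-fold.

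Of the nuclear activators, Rbpj was 2.19-fold higher on day 20 than on day 2 (1.13, SD 0.0797), in steps of 0.81 and 0.32, although its dimmer probe was at 0.29 over that interval. Rbpj was under 2-fold with normexp (0.92) and with the mean of both probes (0.71). The coactivators Maml2 and Maml3 were 3.14-fold and 3.40-fold higher over the same span, while Maml1 was at -0.26. Maml2 and Maml3 were dim, and with normexp their differences were 0.43 and 0.77. Among corepressors, Tle3 of the Groucho family was 4.46-fold lower on day 8 than on day 2 (-2.16) and 2.71-fold lower on day 20 (-1.44), the second of which was under 2-fold with spike-in scaling (-0.73). It was the 1 corepressor of 10 measured that passed 2-fold.

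**Figure D3:**
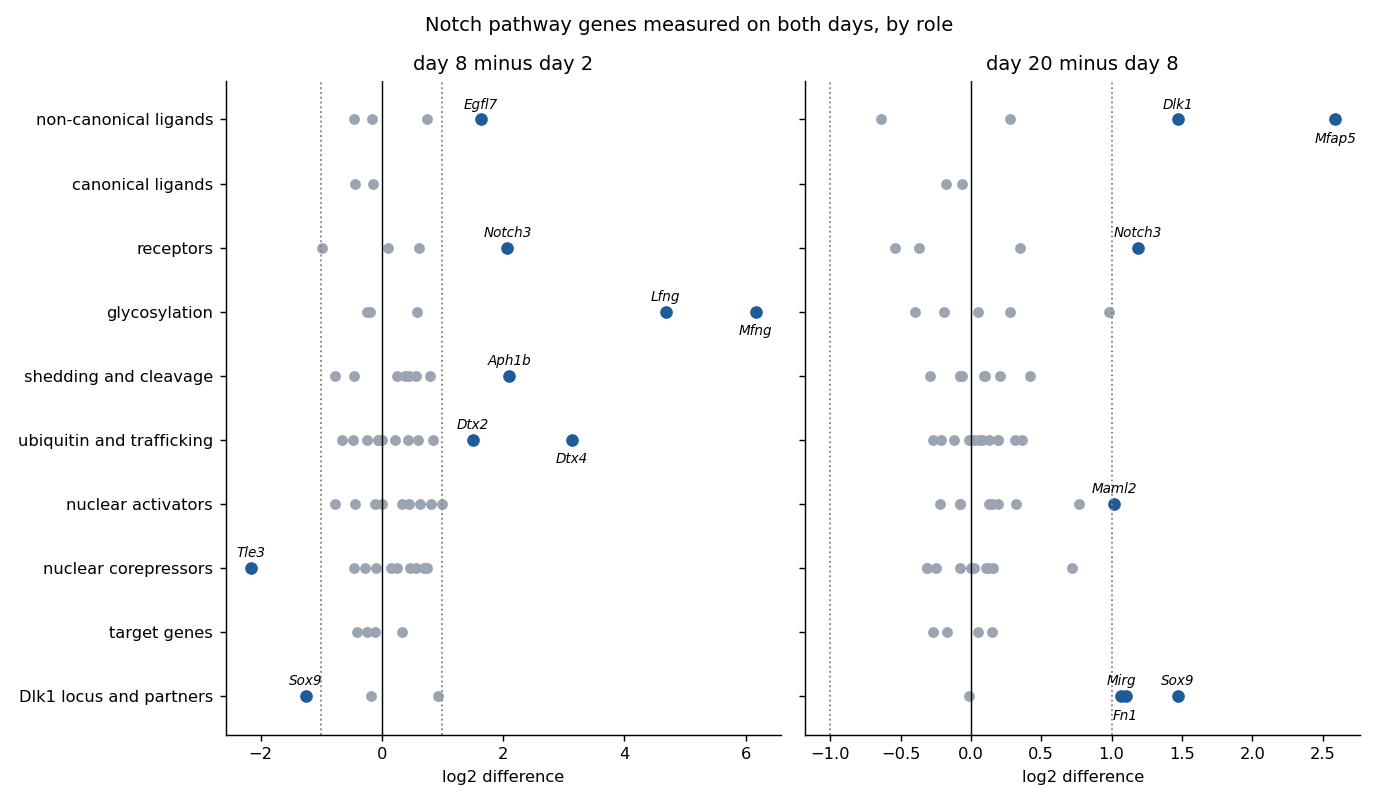
Log2 difference of each gene measured on both days, for the pathway and the genes tied to Dlk1, grouped by role. The left panel is day 2 to day 8, and the right panel, on a narrower axis, is day 8 to day 20. Blue named points are at least 2-fold apart and dotted lines mark 2-fold: Mfng and Lfng lead on the left at 6.17 and 4.68, and Mfap5 on the right at 2.59.

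Genes tied to Dlk1 by locus or by function were read beside it. Sox9, a transcription factor that Dlk1 signalling induces in preadipocytes, read 345, 139 and 564 intensity units. It was 2.37-fold lower on day 8 than on day 2 (-1.25, SD 0.0256, but -0.95 and so under 2-fold with normexp) and 2.78-fold higher on day 20 than on day 8 (1.47, SD 0.0276), which returned it to 0.23 above day 2. Fn1, encoding fibronectin, a matrix protein that binds Dlk1, was at 0.92 on day 8 and a further 2.14-fold higher on day 20. Of the other genes in the imprinted Dlk1 domain, the non-coding RNA Mirg was below the detection mark at day 2 and 2.11-fold higher on day 20 than on day 8 (1.07, SD 0.19), a value of 0.11 with normexp. Meg3, the maternally expressed RNA next to Dlk1, was dim at -0.18 and -0.01. Rtl1, Dio3 and Begain were not well above background.

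A lower signal on day 8 and a 2-fold higher one on day 20, a pattern taken from Dlk1 itself, was counted over all genes. Any first step below 0 was admitted, and in the second step alone 441 of 12318 measured genes (3.58%) were at least 2-fold higher. Of 11807 genes well above background on all 3 arrays, 134 (1.13%) were below day 2 on day 8 and then past 2-fold in the upward direction by day 20, as Dlk1 was. Another 129 (1.09%) were past 2-fold upward in both steps, as Notch3 was. The 6 genes nearest to Dlk1, by the Euclidean distance over both log2 steps, were Col11a1, Itprip, Camkk1, Fxyd5, Pkia and Hspb8, at distances of 0.06 to 0.20. Col11a1, a fibrillar collagen chain, was at -0.52 and 1.45. Sox9 came 151st among 11806 genes, at a distance of 0.79. With 3 arrays, each pattern is a description of 2 numbers.

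**Figure D4:**
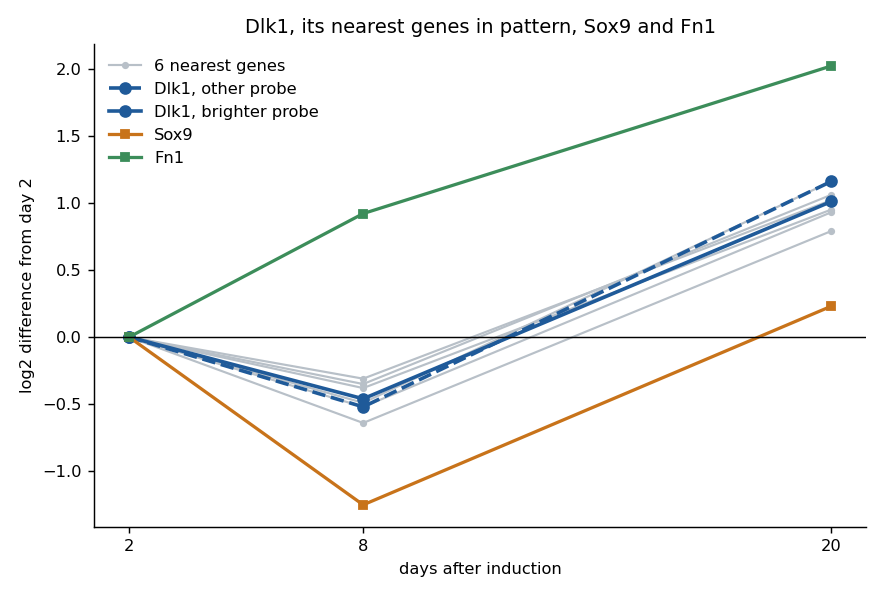
Log2 difference from day 2 against days after induction for both Dlk1 probes, the 6 genes nearest to Dlk1 in pattern, Sox9 and Fn1. On day 8 the Dlk1 probes are at -0.46 and -0.52 and Sox9 at -1.25; on day 20 the Dlk1 probes are at 1.01 and 1.16 and Fn1 at 2.02.

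Cell type markers were read on the same arrays, because in bulk RNA a change in the number of cells of a type and a change in RNA per cell cannot be told apart. All 8 adipocyte markers were well above background on every day, and their summed intensity, in multiples of the array's 75th percentile, was 443, 1359 and 926. Most of each sum came from Adipoq, Cfd and Fabp4 together, at -0.72, -0.55 and -0.71 from day 8 to day 20. In that step Plin1, Slc2a4, Lipe, Pparg and Cebpa lay between -0.15 and 0.12, and the median of the 8 was -0.07. The summed intensity of 10 preadipocyte and fibroblast markers, of which 9, 10 and 10 were well above background, was 50.6, 106 and 157. Most of each of these sums came from the matrix genes Col3a1, Col1a1 and Dcn together. Of the 9 measured on every day, 3 had the signs of Dlk1, below 0 and then above it, with steps of -1.01 and 2.58 for Ly6a, -0.68 and 1.81 for Thy1, and -2.84 and 1.96 for Dpt, and the other 6 were above day 2 on day 8. These were Pdgfra at 0.09, Pdgfrb at 2.53, Dcn at 1.86, Lum at 2.71, Col1a1 at 0.77 and Col3a1 at 1.44. From day 8 to day 20 the same 6 were, in that order, at 0.66, 0.83, 0.74, -0.22, 0.66 and 0.18. Cd34 was detected from day 8 and was at -1.17 from there to day 20. The part of these cells in the Dlk1 result was not tested. For cell types in which Notch3, Notch4 and Egfl7 are usually found, the endothelial markers Cdh5, Tie1, Tek and Cldn5 and the mural markers Rgs5, Cspg4, Kcnj8, Abcc9 and Cnn1 were not well above background on any day. Myh11, the smooth muscle myosin, did differ in the same first step as Notch3. It read 12.5, 120 and 149 intensity units, not well above background on day 2, so that day 8 exceeded day 2 by at least 9.75-fold, and the next step was -0.23. The mural marker Higd1b was at 0.63 and -0.61. Of 8 endothelial markers 2, 3 and 3 were well above background, of 7 mural markers 1, 2 and 2, and of 7 macrophage markers with a probe 2 on each day. Summed endothelial signal was 4.67, 4.32 and 2.81, most of it from 1 Kdr probe, with Pecam1 dim at -0.28 and -0.63, Emcn detected on day 8 alone and Vwf on day 20 alone. Summed mural signal was 0.107, 0.319 and 0.246, and summed macrophage signal was 8.89, 10.5 and 4.93, most of it from 1 Itgam probe, while Adgre1, Ptprc, Lyz2, Mrc1 and Cx3cr1 were not well above background. The part of such cells in the receptor values was not tested.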

How the data were processed

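Total RNA of 3 samples was labelled with cyanine-3 and hybridised to 1-colour Agilent arrays, which share 1 slide per the file headers. The deposited intensity values are spot brightness. The submitters' processing notes name the software as Agilent Feature Extraction 10.7.1.1. Values were background-corrected but not scaled between arrays, per the file headers. Deposited yes or no marks (detection, saturation, outlier) were used as such. The authors' deposited log2 values equal log2 processed intensity plus 1 constant per array (-9.37, -9.31 and -9.86) within 0.01 for 100% of probes, and served as an alternative.

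Control and outlier spots were left out and spots of a probe averaged. Of 39429 probes, 26575 were named through RefSeq accessions of GRCm38.p6. The array design names an earlier build, so no gene coordinates from the files are given. The share of spots well above background was 55.9%, 56.9% and 55.3%, and 0 non-control spots were saturated. Technical SDs came from probes printed 10 times and well above background (192, 212 and 214 on days 2, 8 and 20). The number of arrays limits the precision. Genes named were all 10 listed genes, each pathway gene past 2-fold, the brightest gene of a list with none, and the 6 genes nearest to Dlk1. Other genes named are exceptions, chosen after their values were seen. Gene lists and members were chosen with earlier results of these data known. Calculations used Python 3.11.15 and limma 3.58.1 (quantile, cyclic loess, normexp), and the calling step was tested on simulated data. The differences planted there were well past 2-fold and the noise was small and equal for all probes. Calls near 2-fold and calls on dim probes were therefore not tested by it.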

Additional observations from a re-analysis of the deposited data

How the results depend on the processing

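All 30 differences of 2-fold or more among the genes followed kept their sign in every alternative that gave a value. For most alternatives this was fixed in advance. The 1.5-fold threshold, the changed filters and the deposited values leave a gene's difference as it is. Scaling on another percentile, the median or spike-ins shifts all genes by 1 common amount, here under 2-fold. Only quantile normalization, cyclic loess, normexp and the mean over probes could have turned a sign. Counts of the 8 measured genes past 2-fold were 1, 2 and 3 for day 8 against 2, day 20 against 8 and day 20 against 2. The first was 2 with median scaling and with quantile normalization, where Notch1 passed, 3 at 1.5-fold and 0 above the lower quartile of signal, which kept only 3 of the genes. The second was 1 with normexp and 1 above that quartile. The third was 1 above the quartile and 5 at 1.5-fold, 4 with the percentile over detected probes, median scaling and cyclic loess, where Notch2 joined, and 3 with spike-in scaling, with Notch2 in place of Notch1. For the 74 further genes, the 8 tied to Dlk1 included, the counts were 8, 5 and 11. At 1.5-fold they were 21, 9 and 25. From day 8 to day 20 they were 10 with spike-in scaling, 8 without a filter on dim probes and 3 above the quartile. From day 2 to day 20 they were 17 with cyclic loess, 23 with spike-in scaling and 17 without the filter.

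Spike-in scaling, on 8 probes, put the median over all genes at 0.61, in place of -0.05, between days 8 and 20, so values are relative to the bulk of genes. Over all genes past 2-fold in that step, 67.3% were higher, against 83.9% with median scaling, 99% with spike-in scaling (2060 higher, 21 lower) 83% with cyclic loess and 34.5% without the filter. From day 2 to day 20 the share was 47.7%, against 59.8% with the percentile over detected probes, 84.9% with spike-in scaling and 65% with cyclic loess. In the step from day 8 to day 20, normexp gave 207 higher and 100 lower, in place of 441 and 214. Normexp used the median spot signal and was chosen after seeing the data, as the files carry no mean signal. Notch1, Notch4, Jag1, Hes1 and Hey1 each changed sign in at least 1 comparison, in differences under 2-fold. No replicate could be left out, and no paired analysis was possible because each day has 1 array. Dim signals limit Notch3, Lfng, Maml2, Maml3 and Mirg most.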

Other observations

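The genes nearest to Notch3 in pattern, looked up after its values were seen, were Gm11127, H2-D1, Sdc3, Pcdh18, H2-Q6 and H2-Q2, at distances of 0.06 to 0.11 among 11806 genes. H2-D1, H2-Q6 and H2-Q2 are class I histocompatibility genes with closely similar sequences, so their probes may report one another's transcripts. H2-D1 was at 2.06 and 1.12 in the successive steps, beside 2.07 and 1.19 for Notch3. Sdc3, a cell surface proteoglycan, was at 2.10 and 1.12, and Pcdh18, a protocadherin, at 2.01 and 1.27. These are matches over 2 numbers, and no shared control was examined.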
